A study of Drosophila melanogaster with 5 samples.

Results

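The vacuolar ATPase (V-ATPase) genes of Drosophila larval blood cells are described here on 5 Affymetrix expression arrays. The members are all probe sets that the platform annotation maps to a single gene whose symbol begins with Vha. They are 32 probe sets for 31 genes, of 11982 genes named in this way on the array. The rule uses no measured level, but it was chosen with earlier results of these data known. The array measured RNA from hemocytes, which are the blood cells of flies, pooled from 200 to 300 larvae of the last instar per group.

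The groups were a spen loss-of-function line, labelled spen(GE10359), with a P-element in the UTR of spen; an E(spl) loss-of-function stock, labelled E(spl)rvl, BL199; a Su(H) loss-of-function stock, labelled Su(H)l(417), BL417; an EGFR gain-of-function stock, labelled BL1564; and the control strain W1118. On its 1 informative probe set spen stood at 4.90 on the spen array, with 10.35, 10.75 and 9.14 on the other mutants and 9.79 on the control. Egfr lay between 3.89 and 4.41 on all 5, so near or below the background given further on that no change in it can be read. Only on the EGFR array was it above background, at 4.41 against 4.40. The design set each mutant against the control. Each group was 1 array, so nothing could be tested, no replicate error exists, and higher and lower describe these arrays only. The labels give neither the zygosity of the mutant larvae nor whether the mutants share the W1118 background. In pooled cells, fewer cells of a type and less RNA per cell cannot be told apart.

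The V-ATPase is a proton pump of 2 parts. A cytoplasmic part, V1, hydrolyses ATP, and a membrane part, V0, carries protons into lysosomes, endosomes, phagosomes and secretory vesicles, or out of the cell where the pump sits in the plasma membrane. In phagocytic blood cells it acidifies the compartments in which engulfed material is digested, and in fly epithelia its activity in endosomes is known to be needed for normal Notch signalling. The fly genome holds several genes for many subunits, and a number of these paralogs are known for expression in the adult testis.

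Levels are the deposited values on a log2 scale, where 1 unit is 2-fold. The highest of 27 Bacillus control probe sets, which match no fly RNA, served as background and lay at 4.78 on the spen array, 4.33 on E(spl), 4.28 on Su(H), 4.40 on EGFR and 4.33 on the control. Above it were 20 of the 31 Vha genes on spen, 23 on E(spl), 25 on Su(H), 24 on EGFR and 26 on the control. This bar was highest on spen, which lowers the counts there. With background at the median Bacillus control plus 1 log2 unit, the counts were 25, 24, 26, 25 and 27 in the same order. On all 5 arrays 19 genes were above background, 8 were so on 1 to 4 arrays, and 4 (Vha16-2, Vha16-4, Vha36-3 and VhaM9.7-a) on none. Vha68-1 and Vha68-2, which encode the catalytic A subunit, have no probe set with a single gene in this annotation and are not analysed here.

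The members fell into 2 sets by signal, a description made after the levels were seen. In 14 genes the mean level over the 5 arrays was at least 9, and no single level in them was below 9.81. In the other 17 no level exceeded 8.26. The 14 high-signal genes held at least 1 gene for every subunit but A: Vha55 (B), Vha44 (C), Vha36-1 (D), Vha26 (E), Vha14-1 (F), Vha13 (G) and VhaSFD (H) of V1, and Vha100-1 and Vha100-2 (a), Vha16-1 (c), VhaPPA1-1 (c''), VhaAC39-1 (d), VhaM9.7-b (e) and the accessory VhaAC45 of V0. Probe sets differ in how strongly they bind their target, so levels of different genes are not set against each other as amounts.

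**Figure D1:**
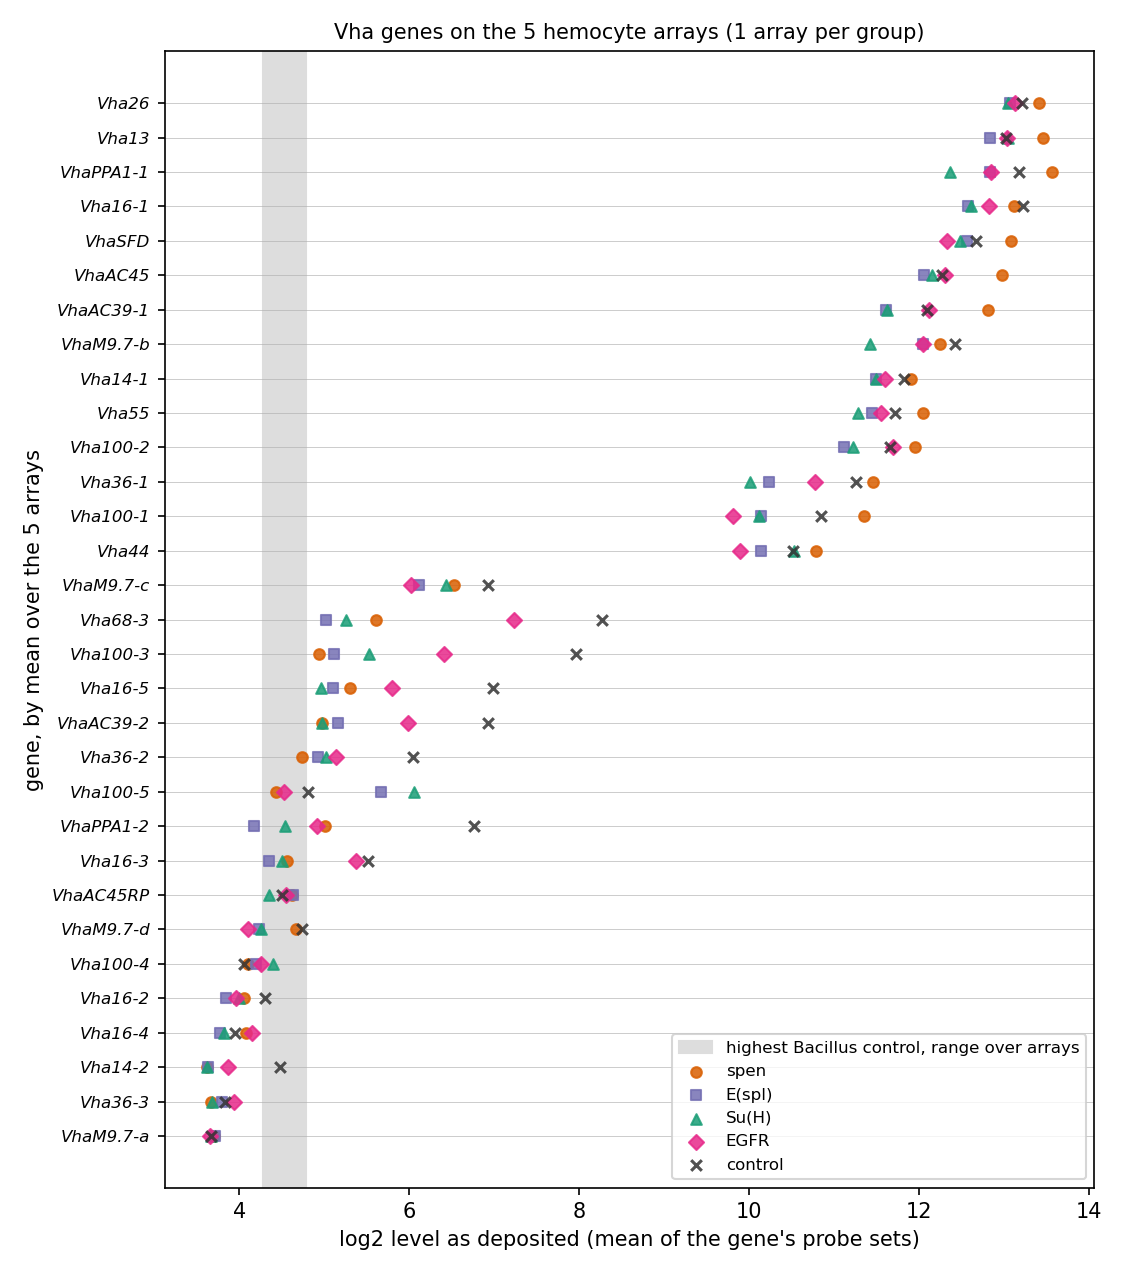
Deposited log2 levels (x axis) of the 31 Vha genes (y axis, ordered by mean) on the 5 arrays, 1 array per group; the grey band spans the highest Bacillus control over arrays. The 14 upper genes lie between 9.81 and 13.57 on every array, and 12 of them are highest on spen (orange circles), while Vha68-3, Vha100-3, Vha16-5, VhaAC39-2, Vha36-2 and VhaPPA1-2 are highest on the control (crosses).

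Between each mutant and the control, a gene was counted as different at 2-fold or more when at least 1 of both levels reached 4.50, the median of all levels. Of the 31 Vha genes, 25 passed this filter in each comparison. A gene that passes only through the control had to be lower, so the counts are read beside all genes. In spen, 0 Vha genes were higher and 6 lower, against 2.7% higher and 14.6% lower among 8079 genes. In E(spl), 0 were higher and 8 lower, against 6.49% and 15.4% of 8076. In Su(H), 1 was higher and 8 lower, against 6.98% and 14.9% of 8139. In EGFR, 0 were higher and 5 lower, against 4.37% and 10.5% of 8017. Most of these lower genes were low-signal paralogs, and the median difference of the passing members was 0.08 for spen, −0.50 for E(spl), −0.48 for Su(H) and −0.38 for EGFR. Over all genes it was 0.04, 0.01, −0.03 and −0.01 in the same order. With all 31 members and no filter the medians were 0.04, −0.46, −0.48 and −0.34.

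The 14 high-signal genes shifted by less than 2-fold with 3 exceptions, and their direction differed between stocks. Against the control their median difference was 0.31 for spen, −0.36 for E(spl), −0.44 for Su(H) and −0.28 for EGFR. All 2687 genes with a mean level of at least 9 had medians of 0.09, 0.03, −0.01 and 0.02. Above the control lay 12 of the 14 for spen, 0 for E(spl), 2 for Su(H) and 4 for EGFR, while 62.6%, 53.1%, 48.3% and 52.1% of all such genes did so. The spen array gave the highest of the 5 levels in 12 of the 14, against 36% of all genes with that signal. The exceptions were VhaM9.7-b and Vha16-1, highest on the control.

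Counted as 2-fold lower among these 14 were 0 genes in spen, 1 for E(spl), 1 for Su(H) and 1 for EGFR, where 3.05%, 3.68%, 4.95% and 3.91% of all genes with that signal were. Most of the shifts were small beside the disagreement of probe sets of a single gene, whose differences had a pooled SD of 0.51 for spen, 0.58 for E(spl), 0.62 for Su(H) and 0.58 for EGFR. Beyond that SD lay VhaAC39-1 and VhaAC45 for spen; Vha36-1, Vha100-1 and Vha16-1 for E(spl); Vha36-1, VhaM9.7-b, VhaPPA1-1 and Vha100-1 for Su(H); and Vha100-1 and Vha44 for EGFR. This SD measures probe sets and not animals.

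Among the V1 subunits, Vha55 encodes subunit B, which forms the catalytic hexamer together with A. It stood at 12.04 on spen, 11.45 on E(spl), 11.28 on Su(H), 11.55 on EGFR and 11.71 on the control. Vha36-1, subunit D of the central rotating stalk, had the widest differences of the high-signal V1 genes, with levels of 11.46, 10.23, 10.01 and 10.77 on the mutant arrays in that order, and 11.26 on the control. E(spl) and Su(H) were its 2 lowest arrays, 2.04-fold and 2.38-fold below the control, and spen was its highest. With array medians set equal its E(spl) difference was −0.95, under 2-fold. Vha14-1, subunit F of the same stalk, spanned 0.41 log2 units over the 5 arrays, from 11.50 on E(spl) and Su(H) to 11.91 on spen.

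Vha26 and Vha13 encode E and G, the peripheral stalks that hold the catalytic head still. Vha26 read 13.41 on spen, 13.07 on E(spl), 13.05 on Su(H), 13.13 on EGFR and 13.21 on the control, the narrowest span of the 14 at 0.36. Vha13 read 13.46, 12.84, 13.05 and 13.03 on the mutants and 13.03 on the control, so spen stood apart from 4 nearly level arrays. Both regulatory subunits, C (Vha44) and H (VhaSFD), were lowest on EGFR. Vha44, whose product leaves the pump when V1 and V0 come apart, was at 10.79, 10.14, 10.53 and 9.89 in the mutants and 10.52 in the control. VhaSFD was at 13.08, 12.57, 12.48 and 12.33 in the mutants and 12.68 in the control.

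In the membrane part, the a subunit forms the path of the proton together with the ring of c subunits and directs the pump to its membrane. Vha100-1, known in flies for its role in neurons, was at 11.36 on spen, 10.14 on E(spl), 10.12 on Su(H), 9.81 on EGFR and 10.85 on the control. Its EGFR level was 2.06-fold below the control, and it was the only high-signal gene past 2-fold there. Vha100-2 was at 11.95, 11.12, 11.22 and 11.70 on the mutants and 11.66 on the control. Both were highest on spen and lower in E(spl) and Su(H), but in EGFR they parted, with differences from the control of −1.04 for Vha100-1 and 0.03 for Vha100-2.

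The proton-carrying ring is built from c and c''. Vha16-1 (c) is the only member with 2 probe sets, and they did not move alike. The first read 13.82 on spen, 13.76 on E(spl), 13.72 on Su(H), 13.86 on EGFR and 13.90 on the control, a span of under 0.2. The second read 12.42, 11.39, 11.50 and 11.79 on the mutants and 12.54 on the control, so it was 2-fold lower in E(spl) (−1.16) and Su(H) (−1.04) where the first differed by −0.14 and −0.18. VhaPPA1-1 (c'') read 13.57, 12.84, 12.36 and 12.84 on the mutants and 13.18 on the control, with its lowest level on Su(H).

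VhaAC39-1, subunit d, which couples the stalk to the ring, had the largest positive difference of all members in spen. It was at 12.81 on spen, 11.61 on E(spl), 11.62 on Su(H), 12.12 on EGFR and 12.10 on the control. VhaAC45, an accessory protein of the pump, was at 12.97, 12.06, 12.16 and 12.30 on the mutants and 12.27 on the control. For both genes the spen array alone stood clearly above the rest, by 0.71 and 0.70 over the control. VhaM9.7-b, the small e subunit, went the other way, with 12.24, 12.04, 11.43 and 12.05 on the mutants and 12.43 on the control, and its Su(H) difference of −0.998 fell just short of 2-fold.

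**Figure D2:**
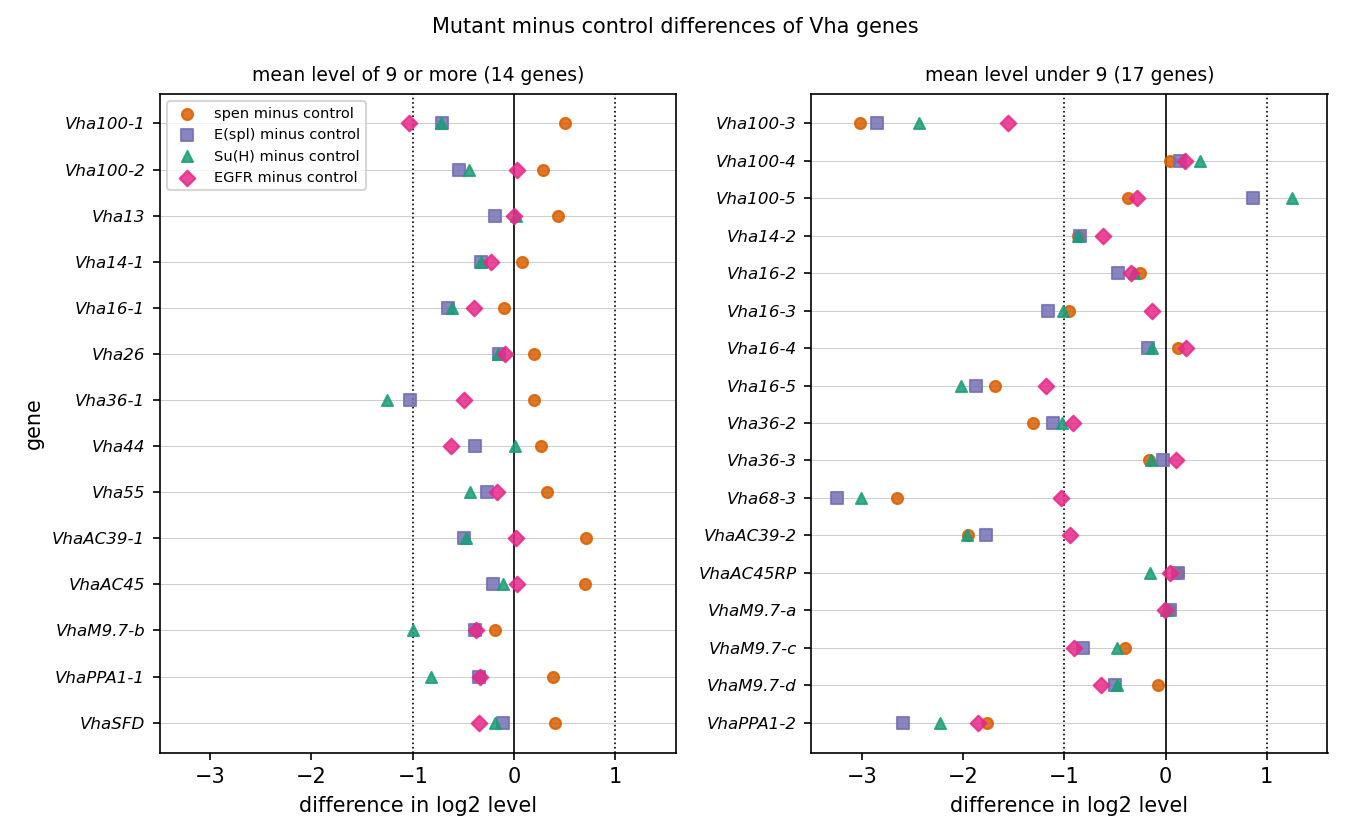
Differences in log2 level of each Vha gene, mutant minus control (x axis), with the 14 genes of mean level 9 or more on the left and the other 17 on the right; dotted lines mark 2-fold. On the left spen (orange circles) lies above 0 for 12 genes and E(spl) (squares) below 0 for all 14; on the right Vha100-3, Vha16-5, Vha68-3 and VhaPPA1-2 lie below −1 in all 4 mutants.

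Because every mutant was set against the same control array, the stocks were also compared with each other. All 14 high-signal genes were lower than in spen in each of the 3 other stocks, with median differences of −0.64 for E(spl), −0.75 for Su(H) and −0.58 for EGFR. All genes of that signal had −0.08, −0.12 and −0.05, and 44.0%, 41.0% and 45.1% of them were higher than in spen. These 3 comparisons share the spen array. Past 2-fold in either direction were 4 of 25 passing Vha genes for E(spl) minus spen (17.4% of all genes tested). They were 5 of 25 for Su(H) minus spen (17.1%) and 4 of 25 for EGFR minus spen (19.5%). These counts lie near the shares of all genes and are not particular to these members. Of them 1, 1 and 3 were higher than in spen. Among the lower ones, Vha100-1 had differences of −1.22 for E(spl), −1.23 for Su(H) and −1.55 for EGFR from spen, and Vha36-1 had −1.23 for E(spl) and −1.45 for Su(H).

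Su(H) and E(spl) were the closest pair of mutant arrays, over all genes as among the Vha genes. Between them 0 of 24 passing Vha genes differed by 2-fold, with differences of −0.61 to 0.41. Over all genes 6.51% did, so a count of 0 lies near that share and is not particular to these members. EGFR minus E(spl) had 4 of 24 genes past 2-fold (12.9% of all genes) and EGFR minus Su(H) had 3 of 24 (11.1%), all of them low-signal paralogs. The largest was Vha68-3, at 7.24 on the EGFR array, with 5.02 on that of E(spl) and 5.26 on that of Su(H).

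RNA quality moved with part of this pattern. The 3' probe sets of actin, eIF-4a and GAPDH exceeded the middle ones by a mean of 1.74 log2 units on spen, 2.14 on E(spl), 2.59 on Su(H), 1.90 on EGFR and 1.57 on the control, so the 2 arrays with the lowest medians of high-signal Vha genes had the widest gap. Its part in the result was not tested. Plasmatocyte markers, 9 genes of the main phagocytic blood cell such as Hml and NimC1, were all above background on every array, and 0 of 9 differed from the control by 2-fold in any mutant. Their mean level was 12.27 on spen, 12.49 on E(spl), 12.50 on Su(H), 12.59 on EGFR and 12.46 on the control. Lamellocyte markers averaged 8.75, 9.67, 10.36 and 9.63 on the mutants and 8.48 on the control. Salivary gland markers averaged 8.75 on spen, 4.53 on E(spl), 5.16 on Su(H), 5.52 on EGFR and 5.74 on the control, highest on the array where most high-signal Vha genes were highest; 7 of 10 were above the control by 2-fold there. The ng1, ng2 and ng3 genes of this list were not above background on any array. Crystal cell markers, 7 genes of the melanizing blood cell, averaged 9.60 on spen, 12.13 on E(spl), 11.87 on Su(H), 11.88 on EGFR and 11.11 on the control, lowest where those Vha genes were highest. On spen 2 of the 7 were at least 2-fold lower than the control and 0 higher, and 6 were above background. CG17109 fell most there, at 7.44 against 12.95 on the control. The Malpighian tubule, a tissue rich in the pump, was traced by 6 markers that averaged 4.44, 6.13, 5.28 and 4.81 on the mutants and 6.53 on the control, with 1 of 6 above background on spen and 5 of 6 on the control. The background itself was higher on spen, at 4.78 against 4.33 on the control, so these 2 counts met unlike bars. The part of these lists was not tested.

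Among the 17 low-signal members, 6 formed a separate pattern: Vha68-3 (A), Vha36-2 (D), Vha100-3 (a), Vha16-5 (c), VhaPPA1-2 (c'') and VhaAC39-2 (d) were at least 2-fold lower than the control in 3 or 4 of the mutants. They were picked on these values, so their counts are a description. Vha68-3 stood at 5.61 on spen, 5.02 on E(spl), 5.26 on Su(H), 7.24 on EGFR and 8.26 on the control. It was 9.47-fold lower in E(spl), 8.03-fold lower in Su(H), 6.30-fold lower in spen and 2.04-fold lower in EGFR. The control was its highest array and EGFR the next.

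Vha100-3 stood at 4.94 on spen, 5.12 on E(spl), 5.53 on Su(H), 6.40 on EGFR and 7.96 on the control. Its differences from the control were −3.02, −2.85, −2.44 and −1.56, again least in EGFR. VhaPPA1-2 stood at 5.01 on spen, 4.18 on E(spl), 4.54 on Su(H), 4.92 on EGFR and 6.77 on the control. On E(spl) it was not above background, so the gene was at least 5.42-fold lower there. In the other mutants the differences were −1.76 for spen, −2.23 for Su(H) and −1.85 for EGFR.

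Vha16-5 was at 5.30, 5.11, 4.96 and 5.80 on the mutants and 6.98 on the control, with differences of −1.68 for spen, −1.88 for E(spl), −2.02 for Su(H) and −1.18 for EGFR. VhaAC39-2 was at 4.98, 5.16, 4.97 and 5.99 on the mutants and 6.93 on the control, 3.88-fold lower in spen and under 2-fold lower in EGFR (−0.95). Vha36-2 was at 4.73, 4.93, 5.02 and 5.13 on the mutants and 6.05 on the control. Its spen level was not above background, which makes it at least 2.40-fold lower there, and its EGFR difference of −0.91 was under 2-fold. After another quantile normalization Vha36-2 was under 2-fold in all 4 mutants, at −0.93 for spen, −0.69 for E(spl) and −0.69 for Su(H). In all 6 genes the control array was the highest and EGFR the highest of the mutants, except for VhaPPA1-2, where spen was the highest of the mutants.

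In 4 Vha genes (Vha68-3, Vha100-3, Vha16-5 and VhaPPA1-2) all 4 mutants were at least 2-fold lower than the control. Of all 5732 genes with a mean level under 9 that reached 4.50 on some array, 8.67% did the same. The 4 comparisons share the control array.

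The testis marker list and these paralogs had similar orders of arrays, while the fat body and midgut lists had others. The 12 named testis markers, among them betaTub85D, a testis tubulin, and Mst84Da to Mst84Dd of the sperm tail, averaged 5.86 on spen, 5.83 on E(spl), 6.27 on Su(H), 7.30 on EGFR and 8.55 on the control. The 6 Vha paralogs averaged 5.09, 4.92, 5.05, 5.91 and 7.16 on the same arrays. Both sets were highest on the control, next on EGFR and low on the other 3. The 6 paralogs were picked for being lower than the control, so their place for that array follows from the choice. The marker lists were chosen with earlier results of these data known. Of the 12 markers, 11 were at least 2-fold lower than the control in spen, 12 for E(spl), 12 for Su(H) and 7 for EGFR. On the spen array, where the background was highest, 8 of them were above it, and on each other array all 12 were. Fat body markers, 5 named genes all above background on every array, averaged 10.35 on spen, 9.77 on E(spl), 10.16 on Su(H), 8.82 on EGFR and 11.15 on the control. They too were highest on the control, but EGFR was their lowest array, and 1, 3, 1 and 4 of the 5 were at least 2-fold lower in the mutants in that order. Midgut markers, also 5, averaged 5.23, 6.08, 7.23 and 5.43 on the mutants and 6.62 on the control, highest on Su(H). The part of these lists in the result was not tested.

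**Figure D3:**
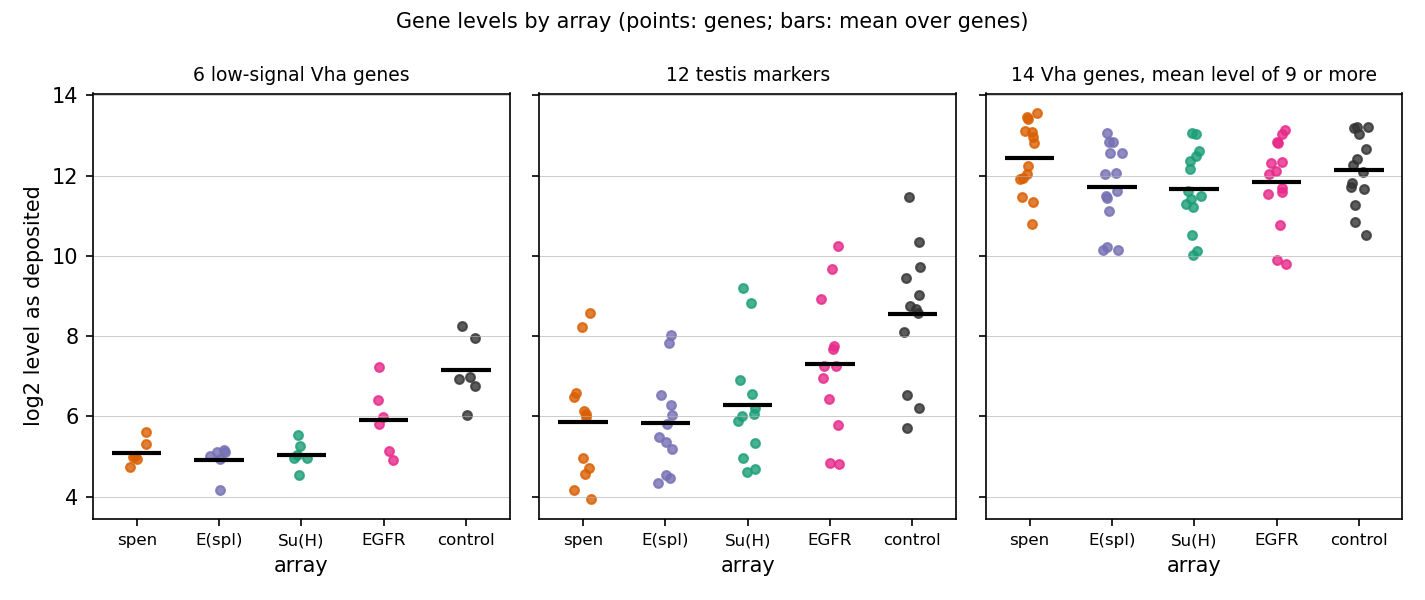
Log2 levels by array for 6 low-signal Vha paralogs (left), 12 testis marker genes (middle) and the 14 Vha genes with a mean level of 9 or more (right); points are genes and bars the mean over genes, 1 array per group. The left and middle bars are highest on the control (7.16 and 8.55) and next on EGFR (5.91 and 7.30), while the right bars stay between 11.67 and 12.44. The 6 paralogs were picked for being lower than the control.

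Of the remaining low-signal members, Vha100-5 (a) was the only member at least 2-fold higher than the control in any mutant. It stood at 4.43 on spen, 5.67 on E(spl), 6.06 on Su(H), 4.52 on EGFR and 4.81 on the control. It was thus raised on the Su(H) array, 2.38-fold over the control, and on E(spl) by 0.87. The spen level was not above background.

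VhaM9.7-c (e) was at 6.53 on spen, 6.11 on E(spl), 6.44 on Su(H), 6.02 on EGFR and 6.92 on the control, lower in every mutant by less than 2-fold. Vha16-3 (c) was at 4.56, 4.35, 4.50 and 5.38 on the mutants and 5.51 on the control, with EGFR close to the control and E(spl) and Su(H) past 2-fold at −1.16 and −1.01, the order of arrays seen in most of the 6 paralogs, with the control highest and EGFR next. After another quantile normalization both were under 2-fold, at −0.87 and −0.76. Its spen level was not above background, which bounds the difference at 1.66-fold lower or more.

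Near background, VhaAC45RP, a gene related to VhaAC45, ranged from 4.34 to 4.63 and VhaM9.7-d from 4.10 to 4.74. Vha14-2 (F) was above background on the control only, at 4.49 against 3.62, 3.64, 3.62 and 3.87 on spen, E(spl), Su(H) and EGFR. Vha100-4 (a) was so on Su(H) only, at 4.39 against 4.06 on the control. The 4 genes above background nowhere lay between 3.66 and 4.31.

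Set side by side, several pairs of paralogs of a subunit stood far apart, in spen with the high-signal gene level with or above the control and its partner below. The partners named here are among the paralogs picked above for being lower than the control, so these gaps follow in part from that choice. For subunit d the spen difference was 0.71 for VhaAC39-1 and −1.96 for VhaAC39-2, which are 2.67 log2 units apart. For c'' it was 0.39 for VhaPPA1-1 and −1.76 for VhaPPA1-2, 2.15 apart. The Release 6 gene table places VhaPPA1-1 and VhaPPA1-2 close together, with 1 gene between them. For D it was 0.20 for Vha36-1, with Vha36-2 at least 2.40-fold lower, and for c it was −0.10 for Vha16-1 and −1.68 for Vha16-5.

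The d, c'' and c pairs also stood apart in the other mutants, whose values entered the same choice of lower paralogs. VhaAC39-1 minus VhaAC39-2 was 1.28 for E(spl), 1.49 for Su(H) and 0.96 for EGFR, and Vha16-1 minus Vha16-5 was 1.23, 1.41 and 0.79 on the same arrays. The Vha16-1 value averages 2 probe sets that did not move alike. Its first differed from the control by −0.14 for E(spl), −0.18 for Su(H) and −0.04 for EGFR. Its second differed by −1.16, −1.04 and −0.755, nearer to Vha16-5 at −1.88, −2.02 and −1.18. The size of the c gap thus depends on the probe set. VhaPPA1-1 minus VhaPPA1-2 was 1.41 for Su(H) and 1.51 for EGFR, while in E(spl) VhaPPA1-1 differed by −0.34 and VhaPPA1-2 was the gene with only a bound. The D paralogs had no such gap in E(spl) and Su(H). In E(spl) Vha36-1 and Vha36-2 differed from the control by −1.03 and −1.11, and in Su(H) by −1.25 and −1.02, so the pair stood 0.08 and −0.23 apart, within the probe set SD. The a paralogs spread furthest. In Su(H) Vha100-5 was at 1.25, Vha100-2 at −0.45, Vha100-1 at −0.72 and Vha100-3 at −2.44 from the control, so that Vha100-3 minus Vha100-5 was −3.69, and it was −3.72 in E(spl). Vha100-4, the direct neighbour of Vha100-2 in the gene table, was not above background on 4 of the 5 arrays. Of the e paralogs, VhaM9.7-b and VhaM9.7-c were above background on all 5 arrays, and their differences from the control lay within 0.53 of each other in every mutant.

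**Figure D4:**
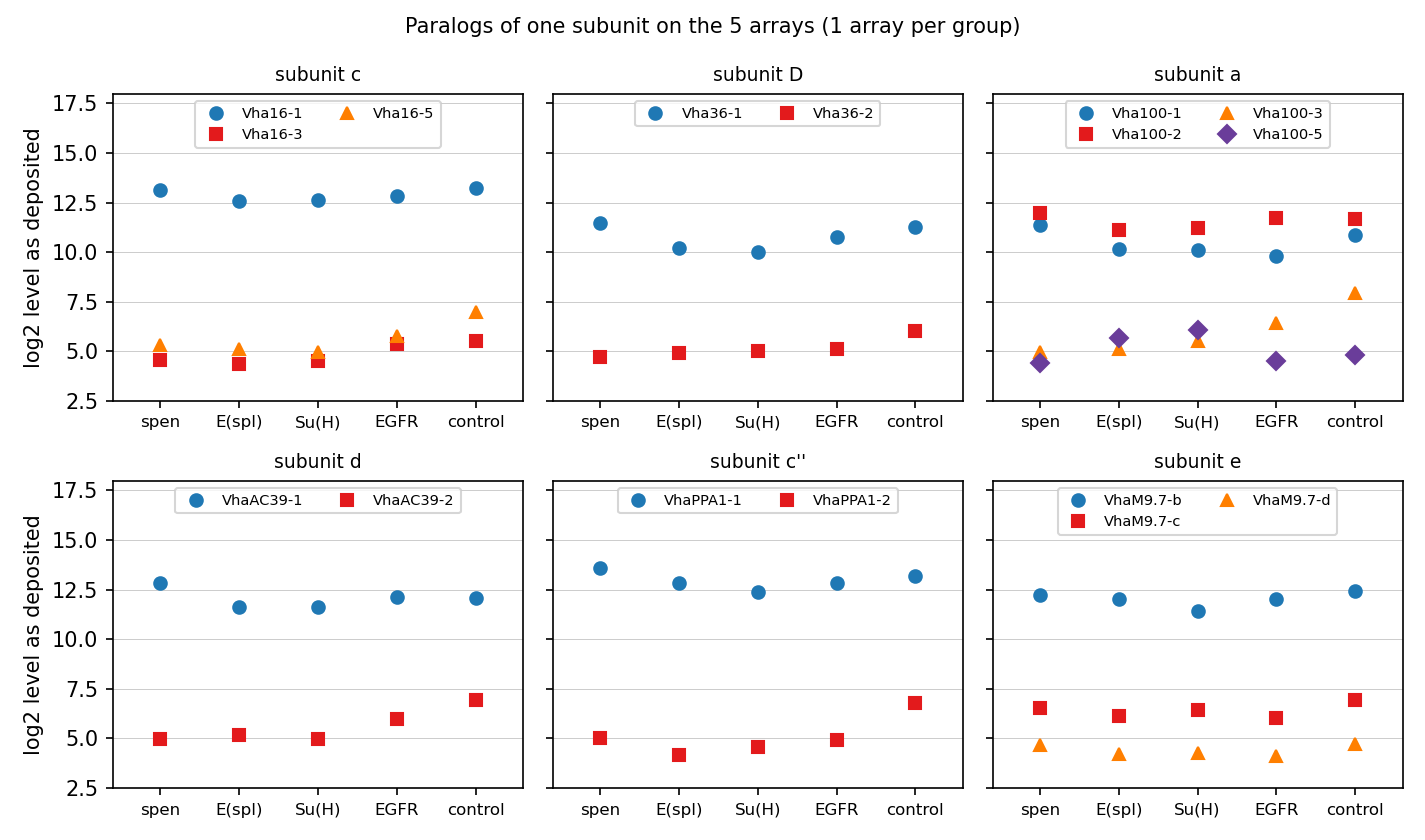
Deposited log2 levels (y axis) of paralogs of 6 subunits on the 5 arrays (x axis), 1 point per gene and array. Within c, D, a, d and c'' the lower-signal genes Vha16-5, Vha36-2, Vha100-3, VhaAC39-2 and VhaPPA1-2 are highest on the control, while Vha100-5 is highest on Su(H) (6.06).

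Other genes of acidic compartments were read from a list of 68 lysosome, autophagy and pump assembly genes, of which 56 were named on the array. They were lysosomal proteases, hydrolases, membrane proteins, fusion factors and autophagy genes, with Rbcn-3B, which helps V1 and V0 assemble, and the regulators Mitf, raptor and RagC-D. Between 49 and 51 of them passed the level filter. By 2-fold, 1 was higher and 2 lower for spen, 1 and 5 for E(spl), 1 and 10 for Su(H), and 1 and 6 for EGFR, with medians of 0.11, −0.11, −0.19 and −0.15. Of all genes 2.7% were higher and 14.6% lower for spen, 6.49% and 15.4% for E(spl), 6.98% and 14.9% for Su(H), and 4.37% and 10.5% for EGFR. Most of the list thus stayed under 2-fold in every mutant, as did most of all genes, so this is not particular to the list. Its medians were nearer to 0 than those of the high-signal Vha genes, a set made by signal, which the list was not. Beside all passing Vha genes (0.08 for spen, −0.50 for E(spl), −0.48 for Su(H) and −0.38 for EGFR), they were nearer in all mutants but spen.

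Within the list, the 6 lysosomal proteases had medians of −0.29 for spen, −0.28 for E(spl), −0.95 for Su(H) and −0.55 for EGFR, and 3 of 6 were 2-fold lower in Su(H), where 14.9% of all genes were. The 11 passing lysosomal membrane and transport genes had 0.03, −0.57, −0.54 and −0.58. The largest differences were as follows. The mag gene, which encodes the acid lipase magro, stood at 5.53 on spen, 6.15 on E(spl), 9.47 on Su(H), 5.27 on EGFR and 7.67 on the control, above the control in Su(H) alone. Cln7, a lysosomal membrane transporter, was at 10.97, 8.91, 8.87 and 8.74 on the mutants and 10.17 on the control, above it in spen alone.

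Gal, a beta-galactosidase, was at 14.27, 12.72, 12.43 and 13.34 on the mutants and 14.07 on the control. Lerp, which sorts enzymes to lysosomes, was at 6.12, 5.69, 4.14 and 4.68 on the mutants and 6.59 on the control, not above background on Su(H). The CD36-like membrane protein gene emp was at 6.32, 5.32, 5.41 and 5.11 on the mutants and 6.41 on the control, lowest on EGFR. Among autophagy genes, Atg17 was at 6.36, 5.20, 5.30 and 5.46 on the mutants and 4.45 on the control, higher in all 4. Atg8b, which like the 6 Vha paralogs was highest on the control, was at 5.02, 4.67, 4.84 and 5.22 on the mutants and 6.41 on the control. Rbcn-3B was at 10.05, 10.24, 9.86 and 9.78 on the mutants and 9.48 on the control. Mitf, the factor known to activate V-ATPase genes in the fly, was at 3.98, 4.31, 4.31 and 4.54 on the mutants and 4.33 on the control, at or near background on all 5.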

How the data were processed

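The authors deposited 1 table of log2 levels for 18952 probe sets on 5 arrays, with values of 2.54 to 14.74. RMA and GCOS are named in the submitters' processing notes, and their role, versions and settings are not given in the sources used here. Per the labels' protocols, 1.0 to 1.3 µg of total RNA was amplified before labelling. Levels were used as deposited. The 183 control probe sets were left out, and 13647 probe sets had 1 gene, 402 several and 4720 none.

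Probe sets of one gene were averaged. Differences are mutant minus control, counted at 2-fold where 1 of both levels reached the median of all levels. Only for folds given as a minimum (at least) was a level not above the highest Bacillus control of its array replaced by that control. Counts, medians, means and all other differences use the levels without this replacement. Every member is named. Values on all arrays are given for members above background on at least 1 array, by range where near it, and of the list of related genes the 4 with the largest difference in each comparison are named, with Rbcn-3B and Mitf added after their values were seen. Members and lists were chosen with earlier results of these data known. Calculations used Python 3.11.15 and pandas 2.3.3 and were tested on simulated data. The alternatives were 2 other scalings, 2 other gene values, 2 other filters, another threshold and another reference.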

Additional observations from a re-analysis of the deposited data

How the results depend on the processing

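The number of arrays, 1 per group, limits every value, and signal near background limits the low-signal paralogs. No paired analysis was possible because each group has a single array. Counts of Vha and related genes and all medians stayed within 1.5 times or within the probe set SD under 6 settings (equal array medians, the brightest or the median probe set, no filter, a filter at background, another background), and quantile normalization again moved 5 counts: 1 Vha gene higher for E(spl), and related genes 2 higher and 1 lower for spen, 3 higher for E(spl) and 2 higher for Su(H). It also took 5 single differences below 2-fold (Vha36-2 for spen, E(spl) and Su(H), and Vha16-3 for E(spl) and Su(H)) and 1 above it (Vha100-5 for E(spl), 1.09), and equal array medians took 3 below it: Vha36-1 for E(spl) (−0.95), and Vha16-3 (−0.97) and Vha36-2 (−0.98) for Su(H). At a threshold of 0.5 on the log2 scale, Vha genes higher were 3 for spen and 1 for E(spl), lower were 13 for E(spl) and 10 for EGFR, and 7 were lower in all 4 mutants. Related genes were then 10, 6, 3 and 4 higher for spen, E(spl), Su(H) and EGFR, and 5, 13 and 17 lower for spen, E(spl) and EGFR. The control array mattered most. Against the mean of the 3 other mutants, Vha genes higher were 3 for spen and 2 for EGFR, and lower were 0 for spen, 1 for E(spl), 0 for Su(H) and 0 for EGFR. Related genes were 8 higher for spen, 0 for E(spl) and 0 for EGFR, and 1, 0, 3 and 1 lower for spen, E(spl), Su(H) and EGFR. The median of the Vha genes for EGFR became 0.03 and that of the related genes for E(spl) 0.09, both of the other sign. Of 124 gene differences, 30 changed sign, 22 of them under 2-fold against the control. The 8 others were Vha16-5 (0.0099) and VhaPPA1-2 (0.46) for spen, Vha100-3 (0.040) and Vha36-2 (0.092) for Su(H), and Vha100-3 (1.21), Vha16-5 (0.67), Vha68-3 (1.94) and VhaPPA1-2 (0.35) for EGFR. Paralog gaps that turned were Vha16-1 minus Vha16-5 (−0.032) and VhaAC39-1 minus VhaAC39-2 (−0.42) for E(spl), Vha100-1 minus Vha100-3 (−0.35), VhaAC39-1 minus VhaAC39-2 (−0.15) and VhaPPA1-1 minus VhaPPA1-2 (−0.56) for Su(H), and the last pair (−0.42) for EGFR. These differences are set against other arrays by construction. The spen array was highest for 12 of 14 high-signal Vha genes under every setting run. Of these settings only the scalings could alter the count freely. Filters do not enter it, and the other gene values touch Vha16-1 alone.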

Other observations

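A pair of accessory genes of the pump lies outside the symbol rule and was looked at after the members' values were seen. ATP6AP2, the prorenin receptor homologue, stood at 12.73 on spen, 11.44 on E(spl), 11.32 on Su(H), 11.61 on EGFR and 12.02 on the control. It was highest on spen, and the control lay above the 3 other mutants, the order of arrays seen in Vha36-1. CG5421, which the gene table also lists as VhaAC45-2, was above background on the control only, at 4.56, with 3.85, 3.72, 3.46 and 4.05 on spen, E(spl), Su(H) and EGFR.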
